A study of Rattus norvegicus with 15 samples.

Results

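A set of 10 genes that respond to glucocorticoid hormone was followed across cultured and freshly isolated heart cells of the rat. They are Nr3c1, Fkbp5, Tsc22d3, Zbtb16, Per1, Klf9, Klf15, Cebpd, Sgk1 and Glul, 10 of the 26276 genes in the count table. Nr3c1 stands there under 2 Ensembl identifiers, so the 10 genes have 11 identifiers, and all 11 passed the filter on low counts. The set was chosen by its CPM levels in beating colonies, set against those in the other groups. Differences between beating colonies and any other group are therefore given for these 10 genes as a description, without a test. The 3 contrasts that leave the beating colonies out were tested. They share the aCM, nCM and CSC libraries with the comparisons that chose the set, so they are not independent of that choice. All cells came from Wistar rats. iCM are beating colonies differentiated from cardiac stem cells, aCM are cardiomyocytes isolated from hearts of animals aged 12 weeks, nCM are cardiomyocytes isolated at postnatal day 1 to 2, and CSC are undifferentiated cardiac stem cells. Each group has 3 libraries. The 3 CSC libraries are separate cultures of 1 clone, and 3 further clones (cCSC1, cCSC2 and cCSC3) have 1 library each. The sources used here do not say whether the 3 libraries of another group came from separate animals or cultures. The p-values therefore measure only how far these libraries lie apart, which may be technical. The contents of the culture media, any steroid among them, and the hour at which cells were collected are likewise not given.

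Glucocorticoids are steroid hormones of the adrenal cortex that cross the cell membrane and bind the glucocorticoid receptor, the product of Nr3c1. The unliganded receptor is held in the cytoplasm by heat shock proteins and immunophilins. The bound receptor moves to the nucleus, binds palindromic DNA elements, mostly far from gene starts, and raises or lowers transcription of nearby genes. In the heart the hormone takes part in maturation before and around birth, and its target genes reach into metabolism, inflammation, salt handling and the circadian clock.

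The promoters of the 4 genes whose level in every iCM library exceeded that in each of the other 9 libraries are printed here, with 1 start for each gene. Each is the 250 bases before the most downstream start in the RefSeq table for rat assembly GRCr8, written 5′ to 3′ on the strand of the gene. Capitals mark the GC box GGGCGG (or its reverse complement CCGCCC) and the TATA box TATAAA.
Fkbp5, chr20:6543556-6543805, minus strand: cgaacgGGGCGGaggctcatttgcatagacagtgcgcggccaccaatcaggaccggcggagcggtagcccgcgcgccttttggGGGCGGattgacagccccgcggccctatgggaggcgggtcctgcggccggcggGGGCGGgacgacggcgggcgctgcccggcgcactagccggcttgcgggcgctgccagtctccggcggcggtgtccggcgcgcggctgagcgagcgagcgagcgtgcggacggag
Tsc22d3, chrX:109010035-109010284, minus strand: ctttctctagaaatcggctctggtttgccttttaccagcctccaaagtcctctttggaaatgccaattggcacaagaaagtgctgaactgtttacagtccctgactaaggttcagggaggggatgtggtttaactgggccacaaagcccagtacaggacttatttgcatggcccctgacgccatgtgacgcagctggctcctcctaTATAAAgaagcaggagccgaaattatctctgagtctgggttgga
Sgk1, chr1:24804832-24805081, minus strand: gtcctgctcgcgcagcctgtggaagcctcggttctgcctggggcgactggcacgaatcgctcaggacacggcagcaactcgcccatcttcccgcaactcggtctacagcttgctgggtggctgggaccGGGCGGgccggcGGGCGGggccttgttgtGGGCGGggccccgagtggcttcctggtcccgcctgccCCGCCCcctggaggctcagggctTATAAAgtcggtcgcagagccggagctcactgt
Glul, chr13:68575816-68576065, plus strand: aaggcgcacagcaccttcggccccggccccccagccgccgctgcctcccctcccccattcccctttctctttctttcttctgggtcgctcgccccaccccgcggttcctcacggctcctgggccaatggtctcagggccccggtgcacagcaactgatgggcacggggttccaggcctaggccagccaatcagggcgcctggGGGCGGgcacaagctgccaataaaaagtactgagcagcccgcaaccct
The printed Fkbp5 promoter held 3 GC boxes and no TATA box, that of Glul 1 GC box, that of Sgk1 4 GC boxes and 1 TATA box, and that of Tsc22d3 a TATA box and no GC box. RefSeq lists 1 start for Fkbp5, 2 for Glul and 3 each for Sgk1 and Tsc22d3. The other Tsc22d3 starts had 3 and 1 GC boxes and no TATA box. Of the other Sgk1 starts, 1 had 2 GC boxes and 1 had a TATA box. Levels are per gene, so which start was in use is not known. The table matched 8 of the 10 genes with 14 starts, without Zbtb16 and Cebpd. Over these 14 starts GGGCGG stood on either strand in 9 promoters of 5 genes, against 30.5% of all 33469 promoters in the table, and TATAAA in 3 promoters of 2 genes, against 12.9%. The palindromic receptor element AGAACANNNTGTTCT was in 0 of 14 (0.012% of all promoters), its looser form GNACANNNTGTNC in 0 of 14 (0.373%) and the 6-base arm AGAACA, which lies within the full element, in 0 of 14 (17.5%). These letters were not in these windows, which says nothing about receptor binding elsewhere.

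Library totals ran between 20.7 M and 48.5 M estimated counts, lowest in aCM. Levels below are CPM, the counts scaled to a common library total after TMM scaling, given for libraries 1, 2 and 3 of a group in that order, with means ± SD of 3 libraries. Without gene lengths, levels can be compared between groups but not between genes. The summed level of 8 cardiomyocyte markers was 6812 to 7797 CPM in iCM, 92970 to 121383 CPM in aCM, 2591 to 5106 CPM in nCM and 3.79 to 50.5 CPM in CSC. Both the colonies and the isolated cells thus carried cardiomyocyte transcripts, but the nCM sum lay below that of the colonies and far below that of aCM. The CSC label was not borne out by 5 progenitor markers, which summed to 178 to 361 CPM in iCM, 77.0 to 123 CPM in aCM, 158 to 163 CPM in nCM and 10.1 to 36.0 CPM in CSC. Kit, a receptor commonly used to mark such cells, had 17.3 to 19.1 CPM in iCM, 26.7 to 40.4 CPM in aCM, 24.2 to 32.2 CPM in nCM and 0.335 to 0.469 CPM in CSC. Markers of other cell types were detected as well. The 7 fibroblast markers summed to 16435 to 18690 CPM in iCM, 2422 to 4773 CPM in aCM, 16639 to 20655 CPM in nCM and 2978 to 3785 CPM in CSC. The 6 leukocyte markers summed to 86.8 to 99.1 CPM in iCM, 96.2 to 143 CPM in aCM, 239 to 368 CPM in nCM and 3.84 to 6.17 CPM in CSC. The 6 endothelial markers summed to 1699 to 1985 CPM in iCM, 1223 to 1782 CPM in aCM, 2410 to 2881 CPM in nCM and 58.1 to 75.8 CPM in CSC. The 5 adipocyte markers summed to 923 to 1151 CPM in iCM, 594 to 1199 CPM in aCM, 1094 to 2122 CPM in nCM and 128 to 398 CPM in CSC. Of them, 3 (Adipoq, Cidec and Plin1) had all iCM libraries above the other 9, as did 3.82% of all genes tested. Fabp4 did not, with 1021 CPM in iCM against 1689 CPM in nCM, nor did Lep, with 0.923 CPM in iCM against 2.00 CPM in aCM. That pattern was also met by 2 of 6 skeletal muscle markers, 1 fibroblast marker and 1 progenitor marker. The 4 erythroid markers found summed to 16461 to 19680 CPM in iCM, 77.4 to 96.8 CPM in aCM and 23553 to 35494 CPM in nCM. In CSC that sum was 94.2 CPM in library 2 and 1.56 and 1.51 CPM in libraries 1 and 3, so CSC library 2 stood apart, and the globin gene Hbb was at 0 in the other CSC libraries. Among the colonies, library 1 stood apart in 6 skeletal muscle markers, with 830.0 CPM against 1573 and 1807 CPM in libraries 2 and 3. The part of these cell types in the results below was not tested, and in bulk RNA fewer cells of a type and less RNA per cell cannot be told apart.

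The receptor itself was expressed in every library, and its level spanned the narrowest range of the 10 genes. Nr3c1 under ENSRNOG00000014096 had 199, 183 and 197 CPM in iCM, 233, 248 and 306 CPM in aCM, 168, 188 and 169.6 CPM in nCM, and 231, 219.7 and 262 CPM in CSC. The iCM libraries lay below every aCM and CSC library and overlapped the nCM libraries, with a mean of 193 ± 9.01 CPM against 262 ± 38.9, 175 ± 10.9 and 238 ± 21.9 CPM in aCM, nCM and CSC. The second identifier, ENSRNOG00000048800, averaged 59.6 ± 1.73 CPM in iCM, 78.8 ± 11.5 CPM in aCM, 73.0 ± 9.77 CPM in nCM and 73.3 ± 7.02 CPM in CSC, and its 3 iCM values were below all 9 others. How reads were split between both identifiers is not known. Their sum was 253 ± 10.3 CPM in iCM, 341 ± 49.8 CPM in aCM, 248 ± 13.5 CPM in nCM and 311 ± 28.9 CPM in CSC.

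Fkbp5 encodes an immunophilin that binds the receptor complex, lowers its affinity for the hormone and is itself induced by it, which closes a negative feedback loop. Fkbp5 had 491, 508 and 475 CPM in iCM, 45.5, 51.4 and 41.4 CPM in aCM, 28.8, 22.3 and 25.4 CPM in nCM, and 185, 168 and 166 CPM in CSC. The 4 groups did not overlap, and the order was iCM, CSC, aCM, nCM. The iCM mean of 492 ± 16.5 CPM was 10.7 times the aCM mean, 19.3 times the nCM mean and 2.84 times the CSC mean.

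Tsc22d3, also called GILZ, encodes a leucine zipper protein that binds NF-kappaB and AP-1 and takes part in the anti-inflammatory action of the hormone. It had 701, 763 and 747 CPM in iCM, 138, 168 and 176 CPM in aCM, 129.9, 99.6 and 96.5 CPM in nCM, and 169, 120.0 and 96.3 CPM in CSC. The colonies stood above all other libraries. The CSC libraries overlapped those of aCM and those of nCM, while every aCM library lay above every nCM library. The iCM mean of 737 ± 32.1 CPM was 4.59 times the aCM mean, 6.78 times the nCM mean and 5.74 times the CSC mean.

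Zbtb16, Klf15, Klf9, Per1 and Cebpd are transcription regulators, and none of them was highest in the colonies alone. Zbtb16, a zinc finger repressor also called PLZF, had 85.3, 142 and 113 CPM in iCM, 165, 195 and 112 CPM in aCM, 21.9, 7.01 and 10.6 CPM in nCM, and 3.28, 1.07 and 5.59 CPM in CSC. The colonies overlapped the adult cells, and both lay above all nCM and CSC libraries. Its iCM mean of 113 ± 28.3 CPM was 34.2 times the CSC mean, which rests on 137, 50 and 189 counts (fitted log2 difference 5.13, and 5.72 without CSC library 3). Klf15 encodes a Krüppel-like factor that controls amino acid and lipid use in heart and muscle. It had 79.5, 72.8 and 74.3 CPM in iCM, 86.1, 91.1 and 67.3 CPM in aCM, 6.87, 4.23 and 5.41 CPM in nCM, and 5.79, 8.00 and 2.10 CPM in CSC. Again the colonies overlapped the adult cells, while the neonatal cells and the stem cells formed the low pair. The iCM mean of 75.5 ± 3.51 CPM was 13.7 times the nCM mean and 14.3 times the CSC mean.

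Klf9 and the clock gene Per1 shared another order, with aCM above iCM, iCM above nCM, nCM above CSC, and no overlap between neighbours. The share of all genes whose 4 groups lay apart, as here and for Fkbp5, was not counted. Klf9, a Krüppel-like factor induced directly by the receptor, had 116, 145 and 131 CPM in iCM, 153, 146 and 207 CPM in aCM, 90.3, 81.9 and 74.8 CPM in nCM, and 35.3, 28.6 and 34.7 CPM in CSC. Per1, a repressor in the core circadian loop whose transcription also answers to glucocorticoids and to cAMP, had 167, 189 and 185 CPM in iCM, 258, 272 and 206 CPM in aCM, 102, 103 and 98.1 CPM in nCM, and 43.4, 31.2 and 44.8 CPM in CSC. For Klf9 the gap between iCM and aCM was narrow, 145 against 146 CPM. Cebpd, a leucine zipper factor of acute phase and fat cell programmes, averaged 51.7 ± 4.35 CPM in iCM, 42.7 ± 14.5 CPM in aCM, 58.0 ± 9.43 CPM in nCM and 14.6 ± 2.46 CPM in CSC. Its 3 heart cell groups overlapped, and the 3 CSC libraries, all of 1 clone, were below them all. Of the other clones, without TMM scaling, cCSC2 had 95.6 CPM, above the highest heart cell library (68.3 CPM in nCM). The clones cCSC1 and cCSC3 had 9.56 and 10.2 CPM.

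Sgk1 and Glul act downstream of the hormone in the cytoplasm. Sgk1 encodes a kinase that raises sodium channel and transporter activity. It had 813, 873 and 847 CPM in iCM, 174, 159.5 and 299 CPM in aCM, 447, 482 and 387 CPM in nCM, and 481, 481 and 668 CPM in CSC. The colonies were above all others, the neonatal cells and the stem cells overlapped, and the adult cells were lowest. Its iCM mean of 845 ± 30.0 CPM was 4.0 times the aCM mean, 1.93 times the nCM mean and 1.55 times the CSC mean, so it was the member that lay above all 9 libraries without doubling. Glul encodes glutamine synthetase, which joins ammonia to glutamate. Glul had 1336, 1266 and 1184 CPM in iCM, 245, 242 and 256 CPM in aCM, 197, 219.9 and 197 CPM in nCM, and 247, 369.6 and 274 CPM in CSC. The iCM mean of 1262 ± 75.7 CPM was 5.09 times the aCM mean, 6.17 times the nCM mean and 4.25 times the CSC mean.

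Counted over the 11 identifiers, 4 (Fkbp5, Tsc22d3, Sgk1 and Glul) had their lowest iCM library above the highest of the other 9, a pattern met by 3.82% of the 17242 genes tested. Of these, 3 (all but Sgk1) also had an iCM mean at least 2 times each other mean, as did 1.16% of genes. Just inside the first threshold was Sgk1, with 813 CPM in its lowest iCM library against 668 CPM in CSC library 3. Just outside it was Klf15, whose lowest iCM value of 72.8 CPM exceeded 1 of 3 aCM values. The values of these genes chose the set, so the counts describe it and are no evidence about it.

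**Figure D1:**
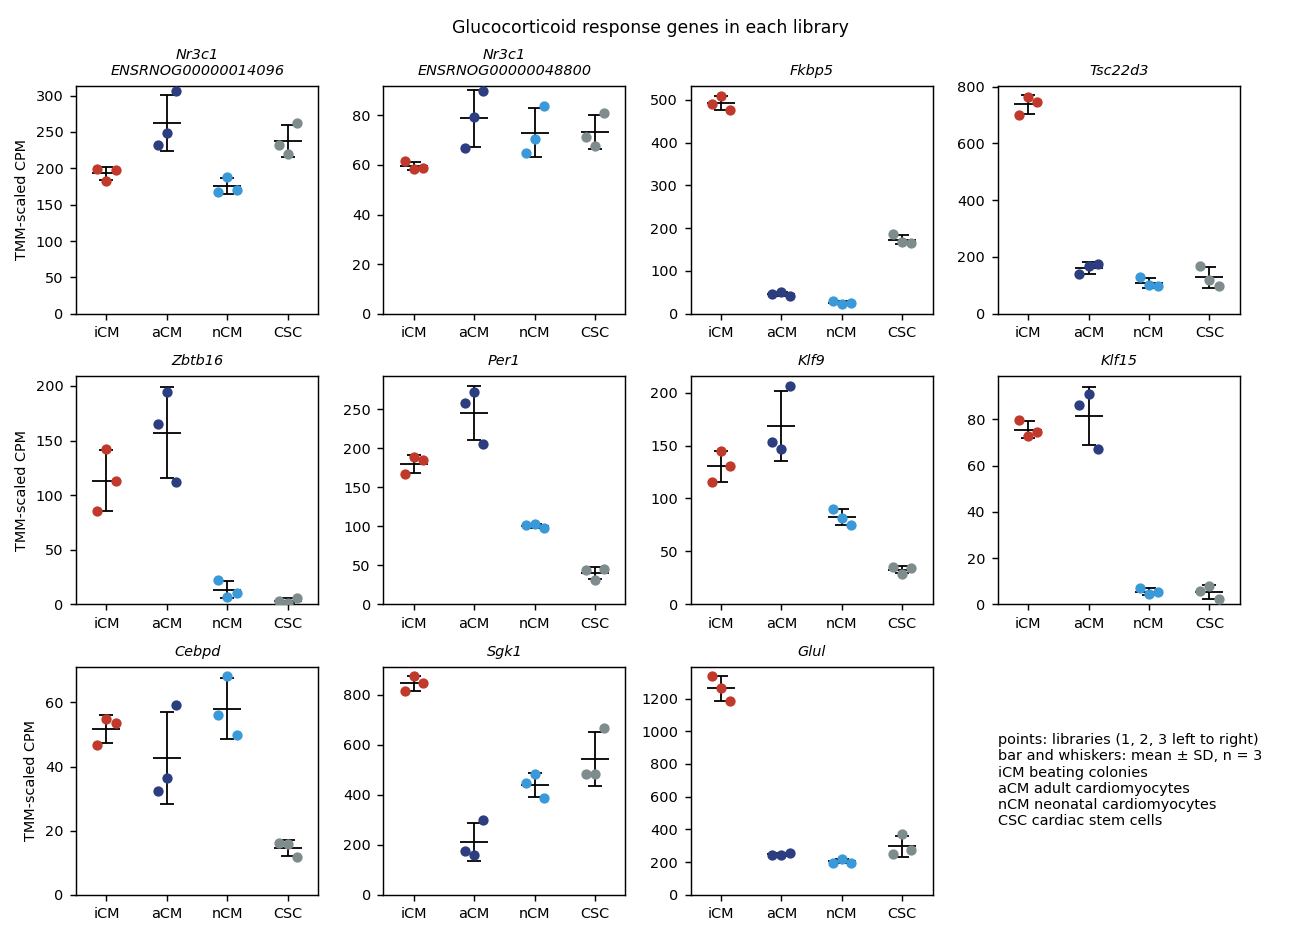
TMM-scaled CPM of the 11 identifiers in each of the 12 libraries, 1 panel each with its own vertical axis from 0; points are libraries, bars and whiskers are the mean ± SD of 3. Fkbp5, Tsc22d3, Sgk1 and Glul have all 3 iCM points above every other point, Zbtb16 and Klf15 are high in both iCM and aCM, and Per1 and Klf9 are highest in aCM.

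The spread between libraries of a group differed among members. On the log2 scale, the SD of Zbtb16 was 0.37 in iCM, 0.41 in aCM, 0.83 in nCM and 1.19 in CSC, and that of Klf15 reached 0.99 in CSC, against a median over all genes tested of 0.11 in iCM, 0.22 in aCM, 0.20 in nCM and 0.22 in CSC. In the colonies the SD of Fkbp5 was 0.048. In aCM, library 3 stood apart for Sgk1 (299 CPM against 174 and 159.5 CPM) and Cebpd (59.2 CPM against 32.5 and 36.4 CPM). The summed level of 12 immediate early genes, which answer quickly to stress and growth signals, was also highest there, with 5634 CPM against 3607 and 3935 CPM. That sum was 6471 to 7208 CPM in iCM, 6633 to 8698 CPM in nCM and 218 to 377 CPM in CSC, and its part in the levels of Sgk1, Cebpd and Per1 was not tested. Marker sums also set aCM library 3 apart from aCM libraries 1 and 2. Its cardiomyocyte sum was lowest, with 92970 CPM against 121383 and 119325 CPM. Its fibroblast sum (4773 CPM against 3167 and 2422 CPM) and leukocyte sum (143 CPM against 96.2 and 96.9 CPM) were highest. The part of cell make-up in its Sgk1 and Cebpd levels was not tested.

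Profiles of the members over the 12 libraries were compared with one another by the root mean square difference of centred log2 CPM, where 0 means an identical shape. Setting the pair of Nr3c1 identifiers aside, Per1 and Klf9 were closest, with 0.242, followed by Tsc22d3 and Glul with 0.358. Fkbp5 and Zbtb16 were furthest apart, with 2.82. Over all genes with a symbol, the profile nearest to Fkbp5 was that of Mst1 (0.332), then Ppp1r1b (0.382) and Igfbp6 (0.454). For Tsc22d3 the nearest were Ehd3 (0.336), Prdx6 (0.356) and the member Glul (0.358), and for Glul they were Krt23 (0.271), Fah (0.329) and Fth1 (0.357). Nearest to Sgk1 were Rasa3 (0.220), Pls3 (0.222) and Parva (0.243), and nearest to Per1 were Bcl11b (0.209), Neurl2 (0.223) and RGD1304884 (0.229). Klf9 lay nearest to RGD1304884 (0.230), Fam117b (0.239) and Irs1 (0.239), and Cebpd to Hbp1 (0.163), Tm6sf1 (0.177) and Ifitm3 (0.203). No gene came as close to Klf15, whose nearest was Dcxr (0.536), or to Zbtb16, whose nearest was Dok7 (0.746). The first Nr3c1 identifier was matched most tightly, by Lrp6 (0.069).

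Adult and neonatal cardiomyocytes differ in age and also in marker sums, with lower cardiomyocyte and higher fibroblast sums in nCM. Age and cell make-up cannot be told apart in this contrast. In aCM against nCM, 7 of the 11 identifiers rose and 1 fell, where 30.8% of all genes tested rose and 31.9% fell (edgeR's quasi-likelihood test, Benjamini-Hochberg adjusted p under 0.05). The members' median log2 fold change was 0.58, against -0.01 over all genes, in libraries that also entered the choice of the set. Klf15 rose most, to 81.5 ± 12.5 CPM in aCM against 5.51 ± 1.32 CPM in nCM (log2 fold change 3.88 ± 0.35 SE, adjusted p = 4.95e-07). Zbtb16 followed, with 157 ± 41.7 CPM in aCM against 13.2 ± 7.76 CPM in nCM (3.58 ± 0.49, adjusted p = 2.67e-05). Per1 (1.28 ± 0.14, adjusted p = 3.9e-06), Klf9 (1.03 ± 0.15, adjusted p = 3.4e-05) and Fkbp5 (0.86 ± 0.12, adjusted p = 3.07e-05) rose as well. Nr3c1 under its first identifier rose by 0.58 ± 0.12 (adjusted p = 0.000883) and Tsc22d3 by 0.56 ± 0.19 (adjusted p = 0.0182). Sgk1 fell by 1.06 ± 0.22 (adjusted p = 0.00082), to 211 ± 76.6 CPM in aCM against 438 ± 48.2 CPM in nCM. Glul (0.28 ± 0.15, adjusted p = 0.115), Cebpd (-0.44 ± 0.21, adjusted p = 0.0767) and the second Nr3c1 identifier (0.11 ± 0.13, adjusted p = 0.476) did not pass. Scaling by total counts, which shifts the median of all genes by -0.34 and leaves 33.6% of calls as rises against 49.2%, took Tsc22d3 (0.22, adjusted p = 0.338) and the first Nr3c1 identifier (0.24, adjusted p = 0.0865) below the threshold and brought Cebpd past it (-0.78, adjusted p = 0.00426). The Tsc22d3 call was also lost without any one of aCM library 2 or 3 or nCM library 2 or 3 (adjusted p = 0.0642, 0.0779, 0.0834 and 0.067), and Cebpd passed without aCM library 3 (-0.79, adjusted p = 0.00172).

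Against the stem cells, adult cells had 5 members higher and 2 lower, where 43.2% of all genes rose and 34.8% fell. Zbtb16 rose by 5.60 ± 0.55 (adjusted p = 5.86e-07), Klf15 by 3.93 ± 0.35 (adjusted p = 2.13e-07), Per1 by 2.62 ± 0.15 (adjusted p = 2.37e-09), Klf9 by 2.36 ± 0.15 (adjusted p = 7.79e-09) and Cebpd by 1.54 ± 0.21 (adjusted p = 1.61e-05). Fkbp5 went the other way and fell by 1.91 ± 0.12 (adjusted p = 6.83e-09), to 46.1 ± 5.03 CPM in aCM against 173 ± 10.7 CPM in CSC. Sgk1 fell by 1.36 ± 0.22 (adjusted p = 6.82e-05). Glul had -0.26 ± 0.14 (adjusted p = 0.114) and passed with 3 of the other scalings and with DESeq2 (-0.42, adjusted p = 0.00887), and without CSC library 1 (-0.39, adjusted p = 0.0271). Tsc22d3 had 0.32 ± 0.19 (adjusted p = 0.128) and passed without CSC library 1 (0.56, adjusted p = 0.00797) and with a minimum count of 50 (0.45, adjusted p = 0.0387). Neither Nr3c1 identifier passed, with 0.14 (adjusted p = 0.294) and 0.11 (adjusted p = 0.459), though the first passed with that minimum of 50 (0.27, adjusted p = 0.0354).

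Neonatal cells set against the same stem cells had 4 members higher and 3 lower, where 36.7% of all genes rose and 35.4% fell. Zbtb16 rose by 2.02 ± 0.50 (adjusted p = 0.00246), Cebpd by 1.99 ± 0.21 (adjusted p = 1.98e-06), Per1 by 1.34 ± 0.14 (adjusted p = 2.02e-06) and Klf9 by 1.33 ± 0.15 (adjusted p = 2.82e-06). The Zbtb16 value was 1.43 without nCM library 1 (adjusted p = 0.0172) and 2.61 without CSC library 3 (adjusted p = 0.00068). Fkbp5 fell by 2.76 ± 0.13 (adjusted p = 4.25e-10), to 25.5 ± 3.26 CPM in nCM against 173 ± 10.7 CPM in CSC. Glul fell by 0.54 ± 0.15 (adjusted p = 0.00462), and by 0.36 without CSC library 2 (adjusted p = 0.0278), which had the highest Glul of the 3. This fall holds for the 1 clone behind CSC. The clones cCSC1, cCSC2 and cCSC3 had 91.0, 123 and 112 CPM of Glul without TMM scaling, below the nCM mean of 205 CPM. The first Nr3c1 identifier fell by 0.44 ± 0.12 (adjusted p = 0.00511). Klf15 (0.04 ± 0.33, adjusted p = 0.91), Sgk1 (-0.31 ± 0.22, adjusted p = 0.21) and Tsc22d3 (-0.24 ± 0.19, adjusted p = 0.261) did not pass, although Tsc22d3 did without CSC library 3 (-0.42, adjusted p = 0.0491). This contrast shares the CSC libraries with the previous one and the nCM libraries with the one before it, so the 3 are not independent of each other.

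**Figure D2:**
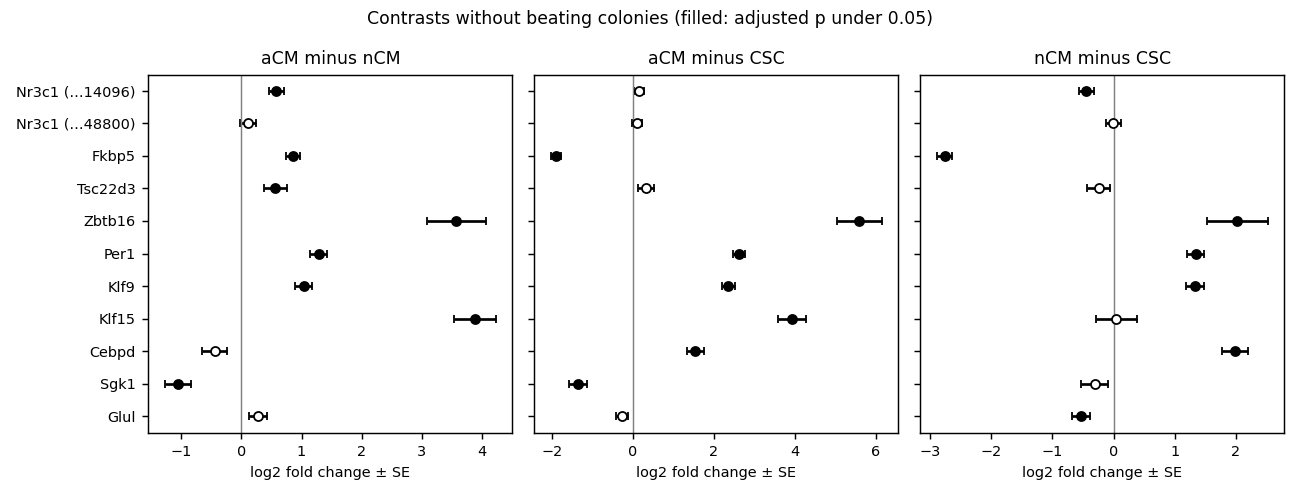
Log2 fold change ± SE of the 11 identifiers in the 3 contrasts without beating colonies, with filled points where edgeR's adjusted p is under 0.05. Klf15 and Zbtb16 are furthest right for aCM against nCM, and Fkbp5 lies left of 0 in both contrasts with CSC, at -1.91 for aCM and -2.76 for nCM.

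Clones other than the one behind the 3 CSC cultures gave another view of the undifferentiated cells, with 1 library each and therefore no test. The contrasts with CSC rest on that 1 clone alone. Values are CPM of each column's own total, with no TMM scaling, and clone 4 is CSC library 1. The cCSC1 and cCSC2 columns are not counts, and their making is not given. Of their values below 100, 2.07% in cCSC1 and 1.23% in cCSC2 were whole within 0.001, while 16.3% and 13.6% of the squares were whole within 0.005, as geometric means of 2 count columns would give. In cCSC3 23.9% of values were whole, so each clone is set against clone 4 with that limit. Fkbp5 had 156, 121 and 166 CPM in cCSC1, cCSC2 and cCSC3 and 191 CPM in clone 4, a log2 ratio of -0.29, -0.66 and -0.21. The median log2 ratio of the 11985 genes with at least 1 CPM in clone 4 was -0.13, -0.14 and -0.16. The Fkbp5 value of cCSC3 lay near that shift. CSC libraries 2 and 3, cultures of the same clone as clone 4, had 168 and 166 CPM of Fkbp5 after TMM scaling. The share of all genes on the same side of clone 4 in all 3 clones was not counted. Glul had 91.0, 123 and 112 CPM in the 3 clones and 255 CPM in clone 4, a log2 ratio of -1.49, -1.05 and -1.18. All 3 were past a 2-fold difference, as were 11.9%, 15.2% and 13.6% of the 11985 genes with at least 1 CPM in clone 4. Klf15 lay above clone 4 in all 3 clones, with 10.6, 15.5 and 19.99 CPM against 5.98 CPM in clone 4, and Klf9 too, with 69.9, 78.2 and 61.4 CPM against 36.4 CPM in clone 4. After TMM scaling, CSC libraries 2 and 3 had 8.00 and 2.10 CPM of Klf15, and 28.6 and 34.7 CPM of Klf9. cCSC2 stood apart in Cebpd, with 95.6 CPM against 9.56 and 10.2 in the other clones and 16.7 in clone 4, and in Zbtb16, with 12.1 CPM against 1.72 and 2.09 CPM in the other clones and 3.38 CPM in clone 4. Sgk1 had 496, 356 and 785 CPM in the clones and 496 CPM in clone 4, Tsc22d3 had 128, 99.9 and 162 CPM in the clones and 174 CPM in clone 4, and Per1 had 27.3, 53.6 and 26.0 CPM in the clones and 44.8 CPM in clone 4.

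**Figure D3:**
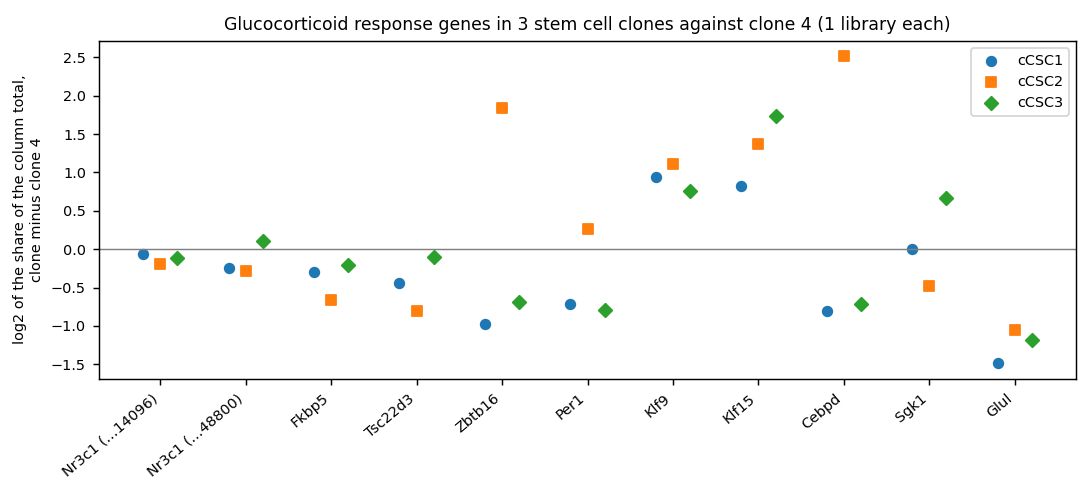
Log2 ratio of each clone's share of its column total to that of clone 4 for the 11 identifiers, 1 library per clone. Glul lies below -1 in all 3 clones, Klf9 and Klf15 lie above 0 in all 3, and cCSC2 stands apart at 2.52 for Cebpd and 1.84 for Zbtb16.

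A list of 43 symbols for other genes known to be induced by glucocorticoids, of which 40 were found and tested, mostly passed the test between colonies and stem cells and mostly did not between colonies and neonatal cells. It was chosen, like the lists below, with earlier results on these libraries known. Sdpr was also entered as Cavin2 and Mt1a as Mt1, so some symbols not found name genes that were. In iCM against CSC, 30 of the 40 rose and 2 fell, where 34.8% of all genes rose and 31.2% fell, and the median log2 fold change was 2.35 against 0.08 over all genes. The same list gave 29 rises and 5 falls of 40 in aCM against CSC and 29 rises and 5 falls in nCM against CSC, with the same CSC libraries. Crispld2, a secreted protein that restrains cytokine production in human airway muscle, rose most in iCM against CSC, to 137 ± 78.6 CPM in iCM against 0.411 ± 0.129 CPM in CSC (8.34 ± 0.54, adjusted p = 1.62e-08), with 49.6 CPM in iCM library 1 against 202 and 160.0 CPM in libraries 2 and 3. Trim63, the muscle ubiquitin ligase MuRF1, had 25.2 ± 1.41 CPM in iCM and 0.198 ± 0.182 CPM in CSC (6.88 ± 0.41, adjusted p = 6.44e-09). Sdpr, a caveolar protein, had 384 ± 12.2 CPM in iCM and 3.20 ± 3.22 CPM in CSC (6.87 ± 0.54, adjusted p = 1.2e-07). The 2 that fell were the metallothionein Mt2A, with 119 ± 8.97 CPM in iCM against 257 ± 58.4 CPM in CSC (-1.11 ± 0.24, adjusted p = 0.00109), and the repressor Bcl6, with 19.0 ± 2.51 CPM in iCM against 31.8 ± 1.89 CPM in CSC (-0.75 ± 0.22, adjusted p = 0.00857).

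Set against the adult cells, the induced list was split, with 13 of 40 higher and 14 lower in iCM, where 33.0% of all genes rose and 30.1% fell (with scaling by total counts, which shifts the median of all genes by 0.28, 66.2% of all calls were rises against 52.3%). The largest rises were in Angptl4, an inhibitor of lipoprotein lipase, with 53.4 ± 6.97 CPM in iCM against 3.12 ± 0.951 CPM in aCM (4.11 ± 0.32, adjusted p = 1.44e-07), the hypoxia pathway regulator Hif3a (3.94 ± 0.33, adjusted p = 3.28e-07) and the cell cycle inhibitor Cdkn1c (3.84 ± 0.31, adjusted p = 2.38e-07). The largest falls were in the phosphatidate phosphatase Lpin1, with 14.9 ± 1.31 CPM in iCM against 191 ± 28.8 CPM in aCM (-3.68 ± 0.24, adjusted p = 2.65e-08), the pyruvate dehydrogenase kinase Pdk4 (-3.03 ± 0.14, adjusted p = 2.38e-09) and the muscle ubiquitin ligase Fbxo32 (-2.89 ± 0.26, adjusted p = 5.81e-07). Lpin1, Pdk4 and Fbxo32 act in lipid and glucose use and in muscle protein breakdown.

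Against the neonatal cells 12 of 40 rose in iCM and 2 fell, where 18.3% of all genes rose and 13.1% fell, and the median was 0.18 against -0.02 over all genes. Mt2A rose to 119 ± 8.97 CPM in iCM against 14.6 ± 2.18 CPM in nCM (3.03 ± 0.26, adjusted p = 3.37e-06). Errfi1, which encodes a feedback inhibitor of the EGF receptor, rose to 239 ± 75.6 CPM in iCM against 46.8 ± 10.4 CPM in nCM (2.36 ± 0.26, adjusted p = 3.41e-05), with 161, 312 and 245 CPM in the iCM libraries. Mt1a, a second metallothionein whose reads may be shared with near-identical copies, rose by 2.32 ± 0.42 (adjusted p = 0.00128). The falls were in Cd163, a macrophage receptor (-0.90 ± 0.31, adjusted p = 0.0436), and Fam107a, an actin-binding stress protein (-0.51 ± 0.15, adjusted p = 0.0194). The 6 leukocyte markers all fell in iCM against nCM. With iCM library 1 standing alone for its group, 6 genes passed as higher and 0 as lower, and without iCM library 1 or iCM library 2 the falls were also 0 at the adjusted threshold. Over the 12 libraries, 5 of the 40 (Ddit4, Errfi1, Foxo3, Hif3a and Rgs2, named after their values were seen) had all iCM libraries above the other 9, as did 3.82% of all genes tested.

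**Figure D4:**
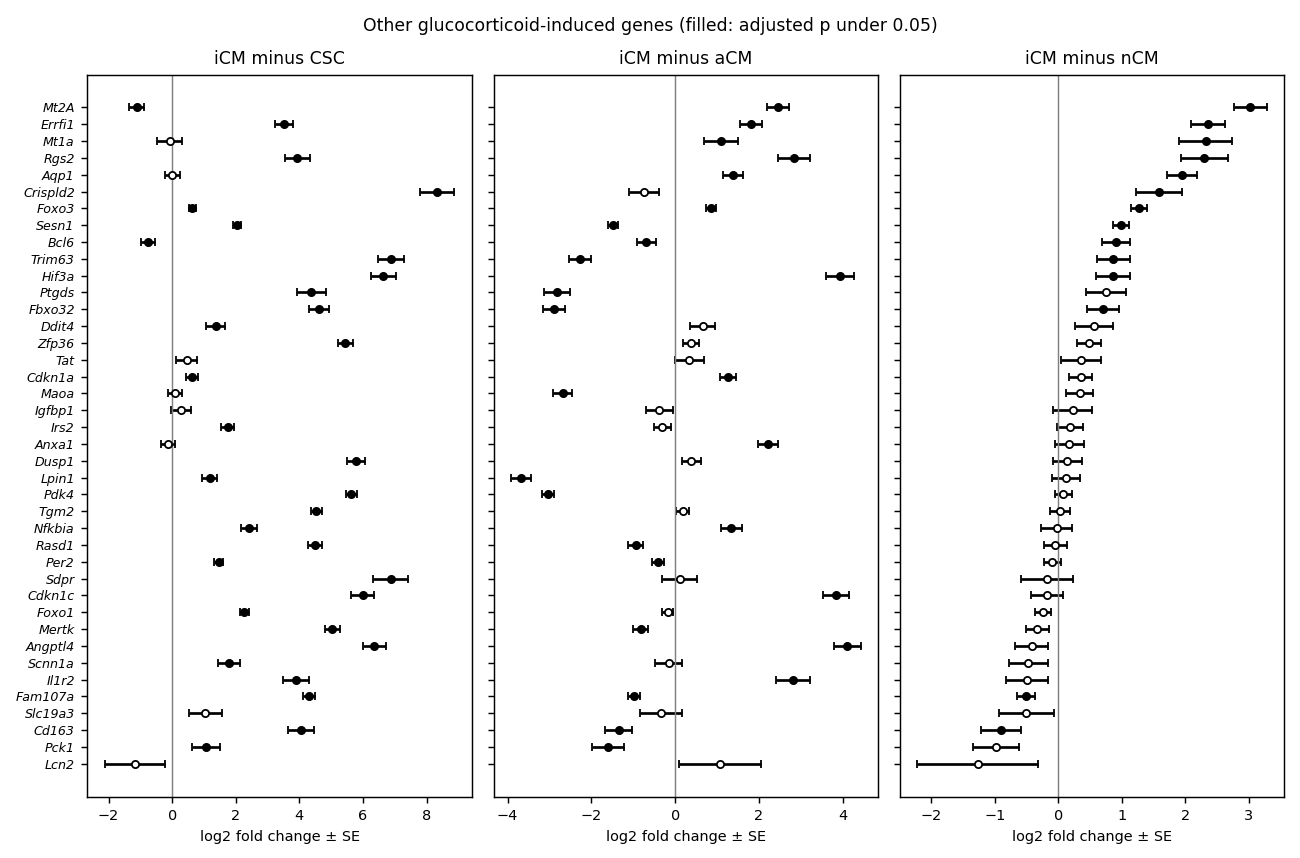
Log2 fold change ± SE of the 40 other induced genes in iCM against CSC, aCM and nCM, ordered by iCM minus nCM, with filled points where edgeR's adjusted p is under 0.05. Most points lie right of 0 against CSC (30 rose), the list is split against aCM (13 rose, 14 fell), and 26 of 40 did not pass against nCM.

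A further list held genes that make, hold or move the hormone and its receptor. Of 25 identifiers for 24 such genes, 7 rose and 12 fell in iCM against CSC, where 34.8% of all genes rose and 31.2% fell. Against aCM 9 rose and 10 fell (33.0% and 30.1% of all genes), and against nCM 7 rose and 1 fell (18.3% and 13.1%). Hsd11b1 encodes the enzyme that turns inactive 11-keto steroids into active glucocorticoid, and H6pd supplies its cofactor in the endoplasmic reticulum. Hsd11b1 had 105, 127 and 125 CPM in iCM, 35.4, 41.8 and 63.9 CPM in aCM, 11.3, 10.8 and 13.0 CPM in nCM, and 69.0, 50.5 and 29.6 CPM in CSC. It rose in iCM against aCM (1.34 ± 0.26, adjusted p = 0.000636), nCM (3.34 ± 0.29, adjusted p = 3.34e-06) and CSC (1.25 ± 0.26, adjusted p = 0.000858). H6pd had 105, 121 and 115 CPM in iCM, 64.7, 72.1 and 63.5 CPM in aCM, 23.3, 27.8 and 24.3 CPM in nCM, and 49.5, 55.3 and 46.6 CPM in CSC. It too rose against aCM (0.77 ± 0.11, adjusted p = 3.55e-05), nCM (2.18 ± 0.11, adjusted p = 4.37e-08) and CSC (1.17 ± 0.11, adjusted p = 5.69e-07). These were the 2 of 25 identifiers with all iCM libraries above the other 9, a pattern of 3.82% of all genes.

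The opposing enzyme Hsd11b2, which inactivates the hormone, was low, with 1.66 ± 0.457 CPM in iCM against 0.457 ± 0.0190 CPM in CSC (1.86 ± 0.35, adjusted p = 0.000347). Nr3c2, the mineralocorticoid receptor, which also binds glucocorticoids, had 8.84 ± 0.316 CPM in iCM against 66.8 ± 6.99 CPM in aCM (-2.92 ± 0.24, adjusted p = 2.19e-07). Nrip1, a corepressor of nuclear receptors, rose in iCM against CSC, to 89.3 ± 3.17 CPM in iCM against 26.6 ± 2.79 CPM in CSC (1.74 ± 0.11, adjusted p = 8.28e-09). The drug and steroid exporter genes Abcb1a and Abcb1b, close paralogs that may share reads, both fell against CSC. Abcb1a had 5.63 ± 0.520 CPM in iCM and 158 ± 68.0 CPM in CSC (-4.81 ± 0.32, adjusted p = 2.02e-08), and Abcb1b had 19.6 ± 3.85 CPM in iCM and 159 ± 84.0 CPM in CSC (-3.01 ± 0.31, adjusted p = 1.79e-06). Against aCM, Abcb1a fell (-1.63 ± 0.29, adjusted p = 0.000271) and Abcb1b rose (2.28 ± 0.33, adjusted p = 5.21e-05). Fkbp4, the immunophilin that opposes Fkbp5 on the receptor and was picked for that reason with its values in view, had 99.9 ± 2.76 CPM in iCM, 266 ± 14.6 CPM in aCM, 81.7 ± 12.8 CPM in nCM and 296 ± 82.2 CPM in CSC. The chaperone Hsp90aa1 was the one fall against nCM (-0.54 ± 0.15, adjusted p = 0.0183). Among these counts, the 7 rises against nCM became 3 to 5 without any one library, and the 10 falls against aCM became 4 with scaling by total counts.

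**Figure D5:**
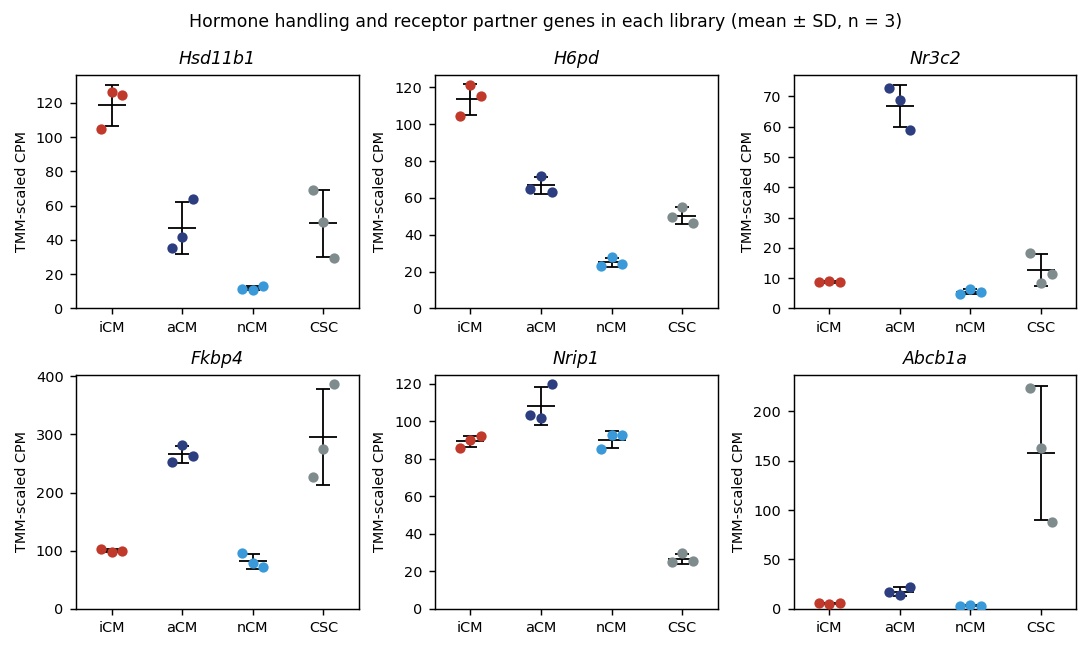
TMM-scaled CPM of 6 genes that handle the hormone or partner its receptor, in each library, with the mean ± SD of 3; vertical axes start at 0. Hsd11b1 and H6pd have all iCM points above the other groups, Nr3c2 is high in aCM with 66.8 CPM, and Abcb1a is high in CSC with 158 CPM.

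Inflammatory genes that glucocorticoids are known to repress were not uniformly low in the colonies. Of 19 identifiers for 18 genes, 9 rose and 5 fell in iCM against CSC, where 34.8% of all genes rose and 31.2% fell. Against aCM 9 rose and 0 fell (33.0% and 30.1% of all genes), and against nCM 1 rose and 10 fell (18.3% and 13.1%). The count of 0 from edgeR was also 0 at an unadjusted p under 0.05 and with DESeq2, and 2 with both groups fitted alone. Tnf had 21.3 ± 2.01 CPM in iCM and 0.130 ± 0.0518 CPM in CSC (adjusted p = 2.04e-09), and the endothelial adhesion gene Sele had 18.3 ± 2.13 CPM in iCM and 0.135 ± 0.154 CPM in CSC (adjusted p = 1.61e-08). All 6 endothelial markers rose in iCM against CSC as well, and their part in the Sele level was not tested. The collagenase Mmp13 fell to 2.90 ± 0.138 CPM in iCM against 117.0 ± 124 CPM in CSC, where library 1 had 260.0 CPM and the others 36.8 and 54.2 CPM (-5.33 ± 0.62, adjusted p = 5.34e-06), and the chemokine Ccl7 fell by 2.28 ± 0.30 (adjusted p = 1.51e-05). The stromelysin Mmp3 had 73.3 ± 23.9 CPM in iCM against 0.397 ± 0.316 CPM in aCM (7.45 ± 0.51, adjusted p = 5.03e-08) and 0.203 ± 0.102 CPM in nCM (8.51 ± 0.52, adjusted p = 1.55e-07). It was higher still in CSC, with 248 ± 122 CPM, and so fell in iCM against CSC (-1.76 ± 0.33, adjusted p = 0.000363). Csf2, a growth factor of myeloid cells, passed against aCM at 1.497 ± 0.105 CPM in iCM and 0.0494 ± 0.0519 CPM in aCM, where a count of 3 in 1 library is worth up to 0.166 CPM. Against nCM both identifiers of the nitric oxide synthase Nos2 fell most (-2.02 ± 0.35, adjusted p = 0.001, and -1.98 ± 0.42, adjusted p = 0.00371). The 10 falls against nCM became 6 without iCM library 2, iCM library 3 or nCM library 2, and the leukocyte marker sum was 86.8 to 99.1 CPM in iCM against 239 to 368 CPM in nCM.

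Of 16 clock genes found other than Per1, 10 rose and 4 fell in iCM against CSC, where 34.8% of all genes rose and 31.2% fell. Against aCM 3 rose and 10 fell (33.0% and 30.1% of all genes). Against nCM 3 rose and 4 fell, where 18.3% of all genes rose and 13.1% fell, so the rises were near the share of all genes. Per2 stands in this list and in the induced one. The clock output gene Dbp had 8.45 ± 0.647 CPM in iCM against 160.3 ± 3.10 CPM in aCM (-4.24 ± 0.17, adjusted p = 7.2e-10), and the repressor Bhlhe41 also fell (-2.83 ± 0.34, adjusted p = 7.46e-06). The activator Arntl, also called Bmal1, had 33.1 ± 0.845 CPM in iCM against 5.07 ± 1.28 CPM in aCM (2.72 ± 0.17, adjusted p = 2.33e-08), and the output repressor Nfil3 rose by 1.79 ± 0.18 (adjusted p = 1.7e-06). Against nCM the differences were smaller. The heme-binding repressor Nr1d1 rose by 1.33 ± 0.17 (adjusted p = 0.000113) and Tef by 1.09 ± 0.13 (adjusted p = 5.4e-05), while Bhlhe40 (-0.78 ± 0.23, adjusted p = 0.0221) and Rora (-0.70 ± 0.18, adjusted p = 0.0106) fell. The 4 falls there became 2 without iCM library 2, iCM library 3 or nCM library 2, and 1 without nCM library 3. Against CSC, Rora rose by 4.56 ± 0.24 (adjusted p = 1.93e-09), Hlf passed at 0.461 ± 0.0954 CPM in iCM and 0.0197 ± 0.0342 CPM in CSC, Bhlhe41 fell by 2.35 ± 0.33 (adjusted p = 2.95e-05) and Npas2 by 1.66 ± 0.19 (adjusted p = 3.89e-06). Time of collection is not given, and the part of the clock in the Per1 levels was not tested.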

How the data were processed

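RNA of integrity number 8 or more was depleted of ribosomal RNA with Ribo-Zero and turned into libraries from 1 µg with a TruSeq kit and random primers, per the labels' protocols. For 12 libraries the authors deposited estimated counts by Ensembl gene and beside them log2 values, normalized by the authors, from which only their factor per library was read. The clone table that the authors deposited has estimated counts for clone 4 and cCSC3, while its cCSC1 and cCSC2 columns hold a count-like signal whose making is unstated. DESeq is named in the submitters' processing notes. Aligner, counting program, strand setting and genome build: not given in the sources used here. One line without a gene name held 0 counts and was left out.

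Estimated counts were rounded and filtered with edgeR's filterByExpr (minimum count 10), which left 17242 genes. All 12 libraries entered 1 edgeR quasi-likelihood fit with TMM scaling, with Benjamini-Hochberg adjustment over all genes at 0.05. The fit was tested on simulated data. No pair of libraries in a group came as close as sampling noise allows, with a lowest median chi-square of 1.72 against 0.455 by chance. Symbols came from the count table. Profiles used log2 CPM with a prior count of 2. Clone columns were scaled to their totals, 21.0, 25.0, 38.8 and 40.5 M. The 10 genes and all lists were chosen with earlier results of these data known. Named from the lists were the 3 genes (2 for lists other than the induced one) with the largest change each way past the threshold. Alternatives were RLE, total counts and the authors' factors, DESeq2, 2 other filters, 2 groups alone, a replicate block and each library left out. A fit with iCM library 1 as the sole iCM library was added after seeing the data. Software was R 4.3.3 with DESeq2 1.42.0, edgeR 4.0.16 and limma 3.58.1, and Python 3.11.15, pandas 2.3.3 and matplotlib 3.10.9.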

Additional observations from a re-analysis of the deposited data

How the results depend on the processing

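Counts of members that rose or fell in the 3 tested contrasts kept within 1.5 times under the other scalings, filters and tools, except for members that fell in aCM against nCM, which were 1 as reported and 2 with total count scaling. Leaving out 1 library gave 1 to 2 falls and 6 to 7 rises there, with 2 falls without aCM library 3, 5 to 6 rises and 2 to 3 falls for aCM against CSC, and 4 rises with 3 to 4 falls for nCM against CSC. The log2 difference of Klf15 between iCM and aCM, -0.11 as reported and within the overlap of both groups, turned to 0.17 with total count scaling, and lay between -0.20 and 0.0015 with 1 library left out (0.0015 without aCM library 2). Glul in aCM against CSC, not called as reported, passed with RLE (-0.42, adjusted p = 0.0221), total counts (-0.43, adjusted p = 0.0109) and the authors' factors (-0.48, adjusted p = 0.012). For the induced list, falls in iCM against CSC were 2 as reported and 1 with iCM library 1 alone. In iCM against nCM its 12 rises became 6 with iCM library 1 alone and 9 to 11 with 1 library left out, and its 2 falls became 4 with both groups fitted alone, 1 with the replicate block, 0 with iCM library 1 alone and 0 to 2 with 1 library left out. The cause of these moves was not tested. Replicate numbers did not pair the libraries: over 18 same-number pairs the correlation of deviations lay between -0.199 and 0.074, and 8 of 36 comparisons were highest for the own number. With the replicate block, the 7 rises and 1 fall of members in aCM against nCM, the 5 and 2 in aCM against CSC and the 4 and 3 in nCM against CSC stayed at those counts. Against CSC, RLE and the authors' factors moved the median of all genes by -0.11 to -0.22, and total counts by 0.10 for iCM, -0.18 for aCM and 0.17 for nCM. Depth limits Zbtb16 in CSC most, at 50 to 189 counts a library. The setting with iCM library 1 alone was chosen after seeing the data and assumes that it varies like the other groups.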
